A study of Mus musculus with 14 samples.

Results

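Interferon-stimulated genes were described across the aortic intima of 4 groups of mice. The list held 42 genes chosen by symbol, out of 22430 genes in the deposited count table. All 42 were found there and all 42 had enough counts to be tested. All 42 would also have passed that filter on the 8 control libraries alone, so none entered only through a group with progerin.

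The mice all lacked apolipoprotein E (Apoe-/-) and are prone to atherosclerosis. Each library was made from the pooled intima of 12 to 14 animals, obtained by running a lysis reagent down the lumen of the thoracic aorta. Ubiquitous progerin mice (Apoe-/-LmnaG609G/G609G, 3 pools) carry the progerin-producing G609G change in both copies of Lmna, and their controls were wild-type for Lmna (Apoe-/-Lmna+/+, 4 pools). Progerin is the truncated form of lamin A that causes Hutchinson-Gilford progeria. VSMC progerin mice (Apoe-/-LmnaLCS/LCS SM22Cre, 3 pools) make progerin in vascular smooth muscle cells (VSMC) through a Cre recombinase driven by the SM22α promoter, and their controls (Apoe-/-LmnaLCS/LCS, 4 pools) carry the same alleles without Cre and make lamin C but no lamin A. Both groups of the second pair thus share the lamin C-only background, and the intima sampled from them lies inside the smooth muscle layer in which the Cre is active. The labels used here give neither the age nor the sex of the mice.

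Interferons are secreted proteins, and cells release those of type I on sensing foreign or misplaced nucleic acid. Type I interferons bind the receptor Ifnar1/Ifnar2, whose kinases Jak1 and Tyk2 activate Stat2, which acts with Irf9 in a complex that binds the interferon-stimulated response element in promoters. Interferon gamma binds the receptor Ifngr1/Ifngr2 and acts on promoters through the gamma-activated site. The target genes encode sensors, antiviral enzymes, GTPases and regulators, and endothelial cells and macrophages both express many of them.

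Promoter sequences are shown for 9 members because the named response element is visible in them and because they cover the main patterns of change described below. The response element was searched as GAAA, 2 bases, GAAA on both strands of windows of 300 bases (250 before to 50 after the start) from RefSeq on GRCm38.p6. Such windows were matched by symbol for 34 of the 42 members, some with more than 1 start, which gives 40 windows. Each line shows a match with up to 25 bases on either side. Matches are in capitals, each sequence is on the strand of its gene, and overlapping matches run together.
Isg15 (chr4:156200850-156200921, minus strand): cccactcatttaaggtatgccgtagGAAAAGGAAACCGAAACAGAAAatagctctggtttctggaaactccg
Ifit1 (chr19:34640760-34640838, plus strand): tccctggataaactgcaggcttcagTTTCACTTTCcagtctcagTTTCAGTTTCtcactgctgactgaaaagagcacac
Oas1a (chr5:120907526-120907570, minus strand): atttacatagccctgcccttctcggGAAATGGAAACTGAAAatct
Stat2 (chr10:128270251-128270310, plus strand): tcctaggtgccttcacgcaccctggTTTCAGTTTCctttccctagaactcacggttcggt
Ifit3 (chr19:34583348-34583441, plus strand): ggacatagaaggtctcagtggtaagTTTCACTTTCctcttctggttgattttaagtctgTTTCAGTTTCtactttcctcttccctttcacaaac
Gbp7 (chr3:142530258-142530317, plus strand): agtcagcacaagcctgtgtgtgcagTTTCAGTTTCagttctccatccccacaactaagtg
Igtp (chr11:58199497-58199555, plus strand): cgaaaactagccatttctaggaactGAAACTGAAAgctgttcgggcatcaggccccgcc
Oas3 (chr5:120777700-120777759, minus strand): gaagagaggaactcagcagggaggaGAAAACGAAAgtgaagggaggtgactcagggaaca
Rsad2 (chr12:26456538-26456597, minus strand): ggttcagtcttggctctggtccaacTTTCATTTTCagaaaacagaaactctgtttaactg

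The first 4 of these genes were called lower with ubiquitous progerin and higher with VSMC progerin, the next 3 were called lower with ubiquitous progerin alone, and the last 2 were called higher with both. Isg15 held 3 overlapping matches that begin between positions -78 and -66 relative to its start, and Ifit1 held 2 separate ones. The element was found in 16 of 40 member promoters (40.0%) against 1131 of all 32851 promoters (3.44%). The gamma-activated site, searched as TTCNNNGAA, which reads the same on both strands, was found in 9 of 40 member promoters (22.5%) against 2726 of 32851 (8.30%). By pattern of change, the response element was found in 5 of the 8 genes with a window that moved in opposite directions, in 2 of the 4 higher with both forms of progerin, and in 8 of the 14 lower with ubiquitous progerin alone. A match describes the letters in the window and is not a binding site shown by these data.

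Libraries held 28242600 to 31978600 estimated counts where mice were wild-type for Lmna, and 27169800 to 29309800 with ubiquitous progerin. The lamin C-only libraries held 31701300 to 35692400, and those with VSMC progerin 27730500 to 33029100. Endothelial markers (9 genes, Pecam1, Cdh5 and Vwf among them) were present in every library, and their summed level, in TMM-scaled CPM (counts per 1e+06 counts), was 21800 to 23800 without and 19100 to 20200 with ubiquitous progerin. For VSMC progerin it was 21100 to 23100 without and 21000 to 21800 with it. Of these 9 markers, 1 was called higher and 6 lower with ubiquitous progerin, and 4 higher and 3 lower with VSMC progerin, with median log2 fold changes of -0.51 and 0.04. The difference between both effects was called lower for 7 of the 9 endothelial markers and higher for 2, with a median of -0.99. All marker counts here stand beside the shares of all genes tested that were called. Those shares were 26.3% higher and 28.3% lower with ubiquitous progerin, and 19.0% and 23.0% with VSMC progerin. For the difference they were 22.4% higher and 21.8% lower. Macrophage markers (13 genes) summed to 211 to 287 and 1130 to 1730 CPM in wild-type control and ubiquitous progerin, and to 202 to 367 and 857 to 1020 CPM in lamin C-only control and VSMC progerin; 12 of the 13 were called higher in each comparison, 1 (Mertk) was called lower with VSMC progerin, and none was at 0 in a whole group. Fibroblast markers (6 genes) summed to 414 to 450 CPM in wild-type and 342 to 391 CPM with ubiquitous progerin, but to 370 to 617 CPM in lamin C-only control and 1210 to 1420 CPM with VSMC progerin. Those sums moved in opposite directions, but most single markers did not fall with ubiquitous progerin. There 1 of the 6 was called lower, 0 higher and 5 were not called (median log2 fold change 0.37), under the shares of all genes tested. With VSMC progerin 4 were called higher and 0 lower (median 1.55). The difference of effects was called lower for 3 of the 6 and higher for 0 (median -1.53). The sum over smooth muscle markers (7 genes) rose from 492 to 830 CPM to 936 to 982 CPM with ubiquitous progerin. It fell from 398 to 560 CPM to 318 to 383 CPM with VSMC progerin. Of these 7 markers, 1 was called higher and 3 lower with ubiquitous progerin (median log2 fold change -0.19), beside 26.3% and 28.3% of all genes tested. With VSMC progerin 0 were called higher and 3 lower (median -0.76), beside 19.0% and 23.0%. Plasmacytoid dendritic cell markers (5 genes) summed to 28.8 to 30.8 and 43.6 to 50.1 CPM in the first pair and 30.6 to 34 and 47.6 to 51.8 CPM in the second. Only 3 of them were tested. With ubiquitous progerin 1 was called higher and 1 lower (median log2 fold change -1.81). With VSMC progerin 1 was called higher and 0 lower (median 0.30). Neutrophil markers stayed at or under 11.7 CPM in sum, and 4 of 4 tested were called higher with ubiquitous and 2 of 4 with VSMC progerin. Lymphocyte markers stayed at or under 13.3 CPM. In bulk RNA of this kind, a lower share of the cells that express a gene and less of its RNA per cell cannot be told apart. The part of these markers in the results below was not tested.

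The 2 progerin models moved this gene group in different directions. Against wild-type control, 27 of the 42 genes were called lower with ubiquitous progerin and 6 were called higher (adjusted p under 0.05 over 14269 genes, edgeR's quasi-likelihood test), where 28.3% of all genes tested were called lower and 26.3% higher. The median log2 fold change was -0.51 over the members and -0.005 over all genes tested. Against lamin C-only control, 21 of the 42 were called higher with VSMC progerin and 2 lower, where 19.0% of all genes tested were called higher and 23.0% lower. The median was 0.24 over the members and -0.03 over all genes tested. With upper-quartile scaling in place of TMM, 24 members were called higher and 1 lower with VSMC progerin, and over all genes tested the split was 3251 higher and 2408 lower against 2705 and 3283 with TMM.

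**Figure D1:**
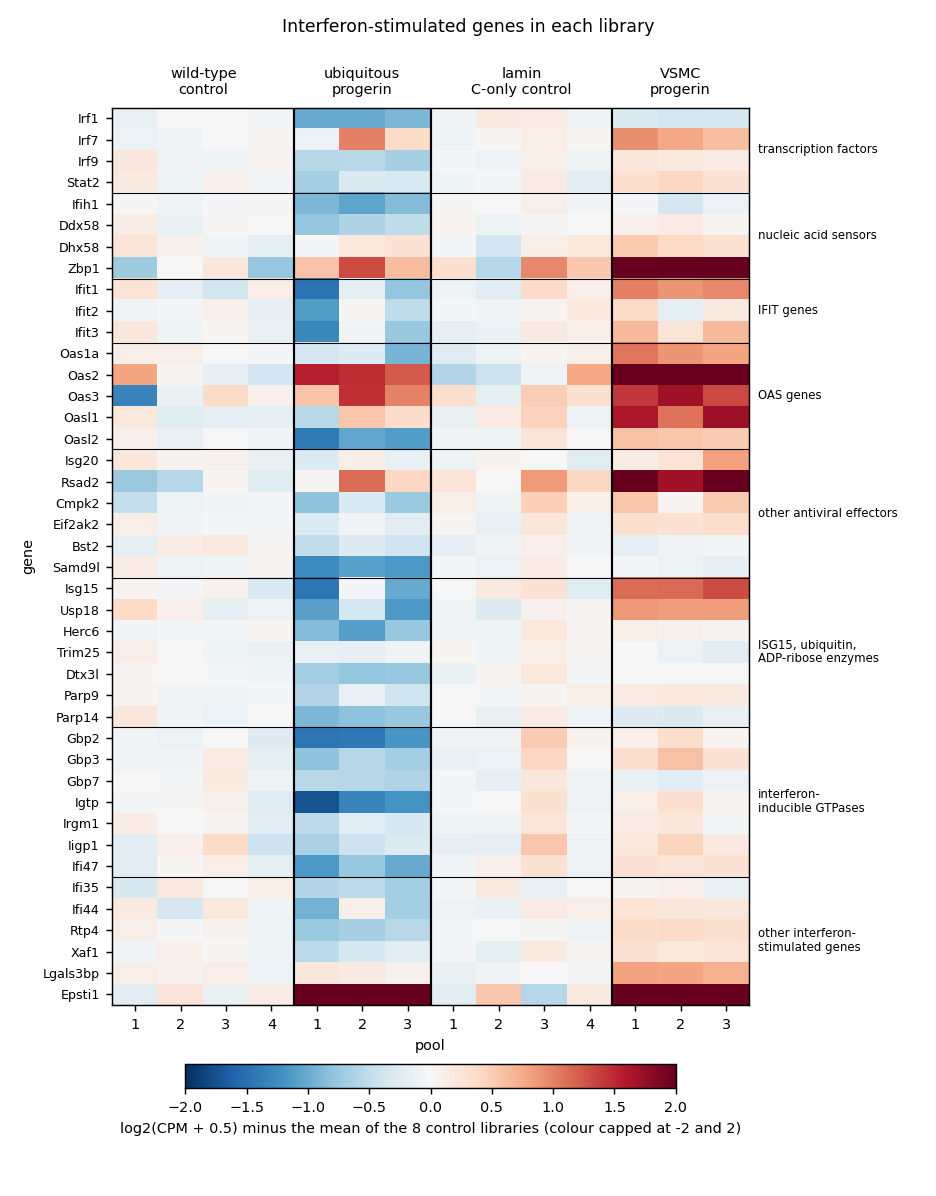
Heat map of 42 interferon-stimulated genes (vertical axis, ordered by role) in 14 libraries (horizontal axis, pools within groups). Colour gives log2(CPM + 0.5) minus the mean of the 8 control libraries. Most genes are blue in the 3 ubiquitous progerin pools and red or near white in the 3 VSMC progerin pools. Zbp1, Oas2, Oas3 and Epsti1 are red in both. Rsad2 is red with VSMC progerin and in ubiquitous progerin pool 2, but near white in ubiquitous progerin pool 1.

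The difference between both effects was tested directly, since the 2 comparisons share no library. Both comparisons also differ in the Lmna background, and only VSMC progerin mice carry Cre. These cannot be told apart here from where progerin is made. The ubiquitous progerin effect minus the VSMC progerin effect was called below 0 for 32 of the 42 genes and above 0 for 0, where 21.8% of all genes tested were called lower and 22.4% higher. The median difference was -0.73 on the log2 scale over the members and 0.002 over all genes tested. The endothelial markers moved the same way in that difference, as given above, and their part in it was not tested. No member had an unadjusted p under 0.05 in the upward direction, and DESeq2 and limma also called 0 upward, with 34 and 33 called downward.

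Taking both comparisons together, 10 members were called lower with ubiquitous and higher with VSMC progerin (Ifit1, Isg15, Oas1a, Oasl2, Irf9, Stat2, Usp18, Rtp4, Gbp3 and Xaf1), a pattern of 4.27% of all genes tested. No member showed the opposite pattern, which 6.38% of all genes tested showed. Another 15 were called lower with ubiquitous progerin only, where 2198 of all 14269 genes tested were. With VSMC progerin only, 5 were called higher (Isg20, Oasl1, Dhx58, Eif2ak2 and Lgals3bp), where 970 of the 14269 were. Called higher with both were 6, against 7.89% of all genes tested (Oas2, Oas3, Irf7, Rsad2, Zbp1 and Epsti1). Called lower with both were 2, against 8.63% (Irf1 and Parp14). In neither comparison were 4 called (Ifit2, Ifi44, Iigp1 and Trim25), against 4373 of the 14269. Of the 10 with opposite calls, 5 kept both calls under every alternative setting and with each pool left out (Oas1a, Oasl2, Stat2, Usp18 and Rtp4), and the count of 10 fell to as low as 6 when lamin C-only pool 1 or 2, or VSMC progerin pool 1, was left out. Left out in turn, ubiquitous progerin pool 2 cut the count higher with both from 6 to 2, and the 2 genes that kept both calls under every setting were Oas2 and Epsti1.

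**Figure D2:**
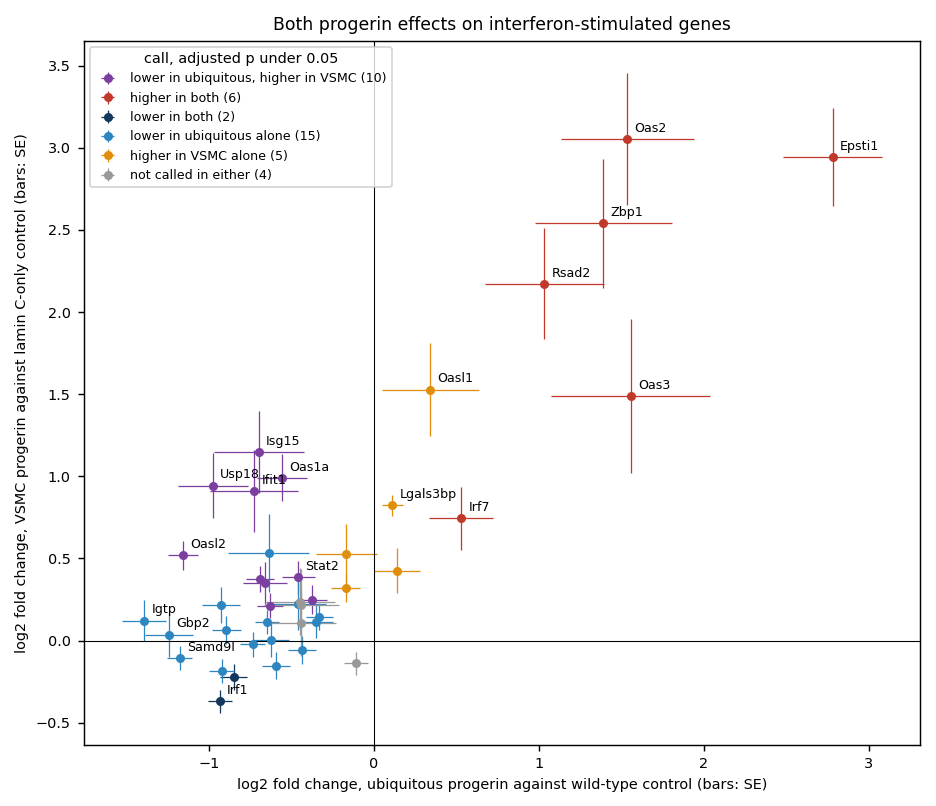
Log2 fold change of each of 42 genes with ubiquitous progerin (horizontal axis) and with VSMC progerin (vertical axis), with bars of 1 standard error and colours for the calls in both comparisons. The 10 genes with opposite calls lie in the upper left, the 6 called higher with both lie in the upper right, and no gene lies in the lower right.

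Lamin C-only control was also set against wild-type control, a comparison that shares its libraries with the other ones. The groups did not differ detectably in these genes: 0 of 42 were called higher and 0 lower, where 0.0911% and 0.0841% of all genes tested were. At an unadjusted p under 0.05, 3 were higher (Rsad2, Cmpk2 and Zbp1) and 0 lower, the smallest adjusted p was 0.59, and DESeq2 and limma called 0 as well. Zbp1 ran from 0.73 to 1.95 CPM in wild-type and from 0.901 to 3.55 CPM in lamin C-only pools, and the ranges overlap. The median log2 difference over the 42 genes was 0.03.

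Of the 4 transcription factors, 3 were called lower and 1 higher with ubiquitous progerin, beside 28.3% and 26.3% of all genes tested. For VSMC progerin, 3 were called higher and 1 lower, beside 19.0% and 23.0%. Irf1 (ENSMUSG00000018899, GRCm38 chromosome 11, 53770014 to 53778374), a factor induced strongly by interferon gamma, stood at 105, 117, 116 and 114 CPM in the 4 wild-type pools and 57.4, 57.8 and 62 CPM in the 3 ubiquitous progerin pools. All ubiquitous progerin pools lay below all wild-type pools, a 1.91-fold fall (log2 -0.93 ± 0.07 SE, adjusted p = 1.3e-09). With VSMC progerin it read 95, 92.5 and 92.7 CPM against 112, 131, 130 and 110 CPM in lamin C-only control, again with no overlap (log2 -0.37 ± 0.07, adjusted p = 0.00022). Irf1 fell further with ubiquitous than with VSMC progerin, by 0.57 on the log2 scale (adjusted p = 8.4e-05).

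Stat2 and Irf9, partners in the complex below the type I receptor, moved in opposite directions in the 2 models. Stat2 (ENSMUSG00000040033, GRCm38 chromosome 10, 128270559 to 128292849) was at 85.2, 69.7, 80.6 and 74 CPM in wild-type and 47.3, 60.9 and 60.7 CPM in ubiquitous progerin pools (log2 -0.46 ± 0.10, adjusted p = 0.00067). In lamin C-only pools it was at 70.2, 74, 83.8 and 63.7 CPM and in VSMC progerin pools at 94.2, 100 and 91.9 CPM (log2 0.39 ± 0.10, adjusted p = 0.0033). Neither pair of ranges overlapped. Irf9 (ENSMUSG00000002325, GRCm38 chromosome 14, 55603571 to 55610030) was at 76.9, 62.2, 61.8 and 67.6 CPM in wild-type and 43.9, 44.7 and 41.3 CPM in ubiquitous progerin pools, 1.55-fold lower (adjusted p = 1.2e-06). Its values with VSMC progerin, 76.7, 74.9 and 72.3 CPM, lay just above the 64.5, 60.5, 71.8 and 60.8 CPM of lamin C-only control (log2 0.21 ± 0.08, adjusted p = 0.032). That small rise lost its call when lamin C-only pool 1, 2 or 4, or VSMC progerin pool 1 or 2, was left out (adjusted p = 0.057, 0.087, 0.081, 0.064 and 0.076) or the pool number was a block (0.052), and Irf9 shares 123 exon bases with Rnf31 on the same strand. Irf7 (ENSMUSG00000025498, GRCm38 chromosome 7, 141262706 to 141266481), which amplifies interferon production, differed from both: it was at 30.7, 32, 33.4 and 33.8 CPM in wild-type pools but at 30.6, 67.4 and 42.9 CPM in ubiquitous progerin pools. The rise (log2 0.53 ± 0.20, adjusted p = 0.036) was largely that of pool 2; without it the log2 change was 0.18 (adjusted p = 0.22), and without any single wild-type pool the adjusted p was 0.06 to 0.08. The call was also lost with no filter, limma, the pool number as a block and a fit of only the groups compared (adjusted p = 0.059, 0.053, 0.066 and 0.11). With VSMC progerin, Irf7 was at 63.5, 57.4 and 50.9 CPM against 31.3, 34.3, 36.4 and 34.6 CPM, with no overlap (log2 0.75 ± 0.19, adjusted p = 0.0079).

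**Figure D3:**
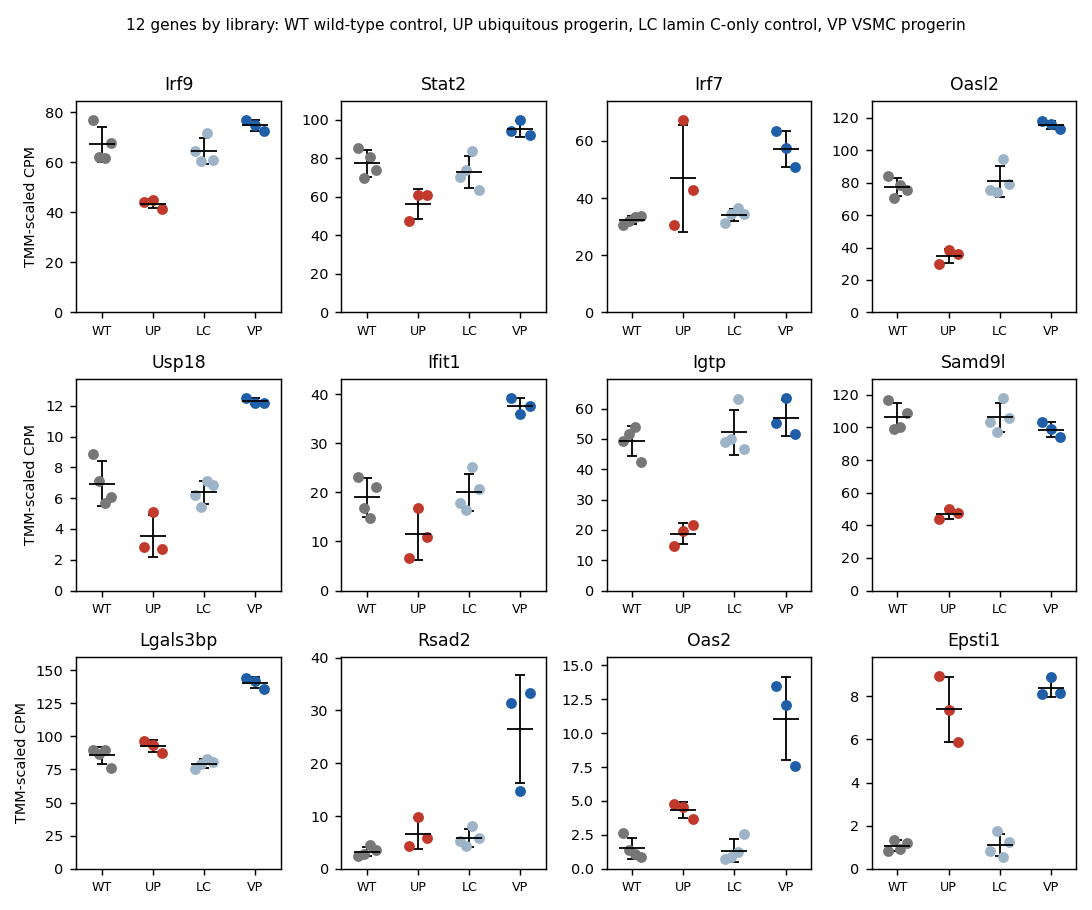
TMM-scaled CPM (vertical axes, each from 0) of 12 interferon-stimulated genes in each library, by group, with horizontal marks for group means and bars of 1 SD (n = 4, 3, 4 and 3 pools). Irf9, Stat2, Oasl2, Usp18 and Ifit1 are low with ubiquitous and high with VSMC progerin, Igtp and Samd9l are low with ubiquitous progerin alone, Rsad2 and Oas2 have their highest means with VSMC progerin, and Epsti1 is high in both progerin groups.

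Among the 4 nucleic acid sensors, the RNA helicases Ifih1 (MDA5) and Ddx58 (RIG-I) fell with ubiquitous progerin, while the Z-nucleic acid sensor Zbp1 rose with both forms. Ifih1 (ENSMUSG00000026896, GRCm38 chromosome 2, 62595798 to 62646255) went from 67.2, 61.5, 64.6 and 66.8 CPM in wild-type to 35.2, 31.6 and 36 CPM in ubiquitous progerin pools, with no overlap (1.90-fold lower, log2 -0.92 ± 0.08, adjusted p = 3.6e-09). Its VSMC progerin pools, at 64.2, 52.1 and 60.7 CPM, overlapped the 67, 65.9, 71.3 and 63.7 CPM of lamin C-only control and no change was called (log2 -0.18 ± 0.07, adjusted p = 0.05), though it was called lower without lamin C-only pool 4 or VSMC progerin pool 1 (adjusted p = 0.042 and 0.034), with no filter (0.042) and with the pool number as a block (0.028). Ddx58 showed log2 changes of -0.65 ± 0.08 (adjusted p = 3.8e-07) and 0.12 ± 0.07 (adjusted p = 0.22), the second called with upper-quartile scaling (log2 0.19, adjusted p = 0.046). Zbp1 (ENSMUSG00000027514, GRCm38 chromosome 2, 173206612 to 173218923) was a low gene, at 0.779, 1.57, 1.95 and 0.73 CPM in wild-type and 2.59, 4.67 and 2.69 CPM in ubiquitous progerin pools. It reached 12.9, 16.9 and 10.1 CPM in VSMC progerin pools against 2.1, 0.901, 3.55 and 2.54 CPM in lamin C-only control, 5.82-fold higher with no overlap (log2 2.54 ± 0.39, adjusted p = 8.4e-05). The 2.62-fold rise with ubiquitous progerin (adjusted p = 0.01) was not called without ubiquitous progerin pool 2 (log2 1.06, adjusted p = 0.065). Dhx58 (LGP2), the regulator of both helicases, was called higher with VSMC progerin only (log2 0.43 ± 0.14, adjusted p = 0.017), a call lost without lamin C-only pool 2 or VSMC progerin pool 1 (adjusted p = 0.06 and 0.062).

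The IFIT genes encode proteins that bind viral RNA lacking the host's cap marks. Ifit1 (ENSMUSG00000034459, GRCm38 chromosome 19, 34640871 to 34650009), whose promoter above holds 2 response elements, rose with VSMC progerin, from 17.8, 16.4, 25.1 and 20.6 CPM to 39.2, 36 and 37.6 CPM with no overlap (1.88-fold, log2 0.91 ± 0.25, adjusted p = 0.012). With ubiquitous progerin the pools spread widely, at 6.58, 16.9 and 11 CPM against 23.2, 16.8, 14.7 and 21.1 CPM in wild-type, and the ranges overlap. The fall (log2 -0.73 ± 0.27, adjusted p = 0.037) lost its call without wild-type pool 1 or 4 or ubiquitous progerin pool 1 or 3 (adjusted p = 0.082 to 0.10), and also with no filter, the pool block or only the groups compared (adjusted p = 0.056, 0.1 and 0.081). Ifit3 was called lower with ubiquitous progerin (log2 -0.64 ± 0.25, adjusted p = 0.048), but not with any single wild-type pool, or ubiquitous progerin pool 1 or 3, left out (adjusted p = 0.057 to 0.15), nor with no filter, the pool block or only the groups compared (adjusted p = 0.062, 0.1 and 0.12). It was called higher with VSMC progerin in a fit of only the groups compared (log2 0.56, adjusted p = 0.0054). Ifit2 was called in neither comparison; without ubiquitous progerin pool 2 it was called lower with ubiquitous progerin (log2 -0.78, adjusted p = 0.00087). All 3 IFIT genes were highest, among the ubiquitous progerin libraries, in pool 2.

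The OAS family is named after enzymes that make short oligoadenylates, which activate RNase L to degrade RNA. This family was the most uniformly raised with VSMC progerin. All 5 members were called higher, at log2 changes of 0.52 to 3.05, beside 19.0% of all genes tested. With ubiquitous progerin 2 were called higher and 2 lower, beside 26.3% and 28.3%. Oasl2 (ENSMUSG00000029561, GRCm38 chromosome 5, 114896936 to 114912234), an OAS-like protein, was at 84.4, 70.7, 78.6 and 75.7 CPM in wild-type and 29.6, 38.3 and 36.2 CPM in ubiquitous progerin pools, 2.23-fold lower (log2 -1.16 ± 0.09, adjusted p = 3.8e-09). With VSMC progerin it was at 118, 116 and 113 CPM against 75.6, 74.1, 94.7 and 79 CPM in lamin C-only control, 1.43-fold higher (log2 0.52 ± 0.09, adjusted p = 8.5e-05). Neither pair of ranges overlapped, and the difference of both effects was -1.68 ± 0.13 on the log2 scale (adjusted p = 3.9e-09), the smallest p of the difference among the 42 genes. Oas1a moved in the same opposed way, with log2 changes of -0.56 ± 0.15 (adjusted p = 0.0038) and 0.99 ± 0.14 (adjusted p = 1.2e-05).

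Oas2 (ENSMUSG00000032690, GRCm38 chromosome 5, 120730333 to 120749853) was low in controls, at 2.62, 1.38, 1.11 and 0.889 CPM in wild-type and 0.698, 0.839, 1.22 and 2.57 CPM in lamin C-only pools. It read 4.77, 4.52 and 3.7 CPM in ubiquitous progerin pools (2.90-fold, log2 1.54 ± 0.40, adjusted p = 0.0039) and 13.5, 12.1 and 7.6 CPM in VSMC progerin pools (8.30-fold, log2 3.05 ± 0.40, adjusted p = 1.2e-05). Both progerin groups lay above all of their controls, and the VSMC progerin rise was the largest of the 42. That it exceeded the ubiquitous rise (adjusted p = 0.039) was not called in 10 of the 14 fits with 1 pool left out (adjusted p = 0.055 to 0.091). Oas3 rose by log2 1.56 ± 0.48 and 1.49 ± 0.47; the first was not called without ubiquitous progerin pool 2 (adjusted p = 0.067), the second without VSMC progerin pool 2 (adjusted p = 0.056) or with limma (0.058). Oasl1 was called higher with VSMC progerin alone (log2 1.53 ± 0.28, adjusted p = 0.00021).

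Of the other 6 antiviral effectors, 3 were called lower and 1 higher with ubiquitous progerin, beside 28.3% and 26.3% of all genes tested. For VSMC progerin, 3 were called higher and 0 lower, beside 19.0% and 23.0%. Samd9l (ENSMUSG00000047735, GRCm38 chromosome 6, 3372257 to 3399572), a restraint on viral replication and on cell growth, was at 117, 99.1, 100 and 109 CPM in wild-type and 43.7, 49.7 and 47.7 CPM in ubiquitous progerin pools. The 2.26-fold fall (log2 -1.18 ± 0.08, adjusted p = 1.5e-10) had the smallest p of its role. With VSMC progerin it was at 103, 98.8 and 94.2 CPM against 103, 97.4, 118 and 106 CPM, overlapping, and was not called (adjusted p = 0.26). Rsad2 (viperin, ENSMUSG00000020641, GRCm38 chromosome 12, 26442746 to 26456452), which makes a chain-ending nucleotide, rose 4.51-fold with VSMC progerin, from 5.22, 4.23, 8.11 and 5.88 CPM to 31.4, 14.7 and 33.3 CPM (log2 2.17 ± 0.34, adjusted p = 0.0002). Its ubiquitous progerin pools were at 4.36, 9.86 and 5.83 CPM against 2.34, 2.72, 4.42 and 3.52 CPM in wild-type; the ranges overlap, and the 2.05-fold rise (adjusted p = 0.027) was not called without wild-type pool 1, 2 or 4 (adjusted p = 0.075, 0.069 and 0.05) or ubiquitous progerin pool 2 (log2 0.64, adjusted p = 0.16).

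Bst2 (tetherin), which holds budding virus at the cell surface, was the most abundant member per length in controls, at 98.8 CPM per kb of exon, and fell with ubiquitous progerin (log2 -0.44 ± 0.09, adjusted p = 0.00022). Eif2ak2 (PKR), a kinase that stops translation when it binds double-stranded RNA, was called higher with VSMC progerin only (log2 0.32 ± 0.09, adjusted p = 0.0058). Isg20, an RNA exonuclease, was also called higher there (log2 0.53 ± 0.18, adjusted p = 0.024), but not without lamin C-only pool 1 or 4 or VSMC progerin pool 3 (adjusted p = 0.053, 0.06 and 0.25), nor with the pool block (0.063). Cmpk2, a mitochondrial nucleotide kinase, was called lower with ubiquitous progerin (log2 -0.46 ± 0.17, adjusted p = 0.027), a call lost without wild-type pool 2, 3 or 4 or ubiquitous progerin pool 1 or 3 (adjusted p = 0.056 to 0.13) or with the pool block (0.059).

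Isg15 and the enzymes of protein modification were called lower with ubiquitous progerin in 6 of 7 cases, beside 28.3% of all genes tested. For VSMC progerin, 2 were called higher and 1 lower, beside 19.0% and 23.0%. Isg15, a ubiquitin-like protein that is attached to other proteins, was at 11.8, 11, 12.1 and 9.08 CPM in wild-type and 3.85, 11.2 and 5.41 CPM in ubiquitous progerin pools, with overlap (log2 -0.70 ± 0.27, adjusted p = 0.042). That call was lost without wild-type pool 1, 2 or 3 or ubiquitous progerin pool 1 or 3 (adjusted p = 0.072 to 0.16), with no filter (0.064) and with only the groups compared (0.086). With VSMC progerin Isg15 rose 2.22-fold, from 11.4, 12.9, 14 and 9.56 CPM to 25.4, 25.5 and 28.8 CPM with no overlap (log2 1.15 ± 0.25, adjusted p = 0.0022). Usp18 (ENSMUSG00000030107, GRCm38 chromosome 6, 121245906 to 121270917), which removes Isg15 and dampens the type I receptor, fell in one model and rose in the other: 2.83, 5.08 and 2.69 CPM in ubiquitous progerin against 8.89, 7.14, 5.69 and 6.06 CPM in wild-type pools (log2 -0.98 ± 0.21, adjusted p = 0.00064), and 12.5, 12.2 and 12.2 CPM in VSMC progerin against 6.23, 5.41, 7.08 and 6.86 CPM in lamin C-only pools (log2 0.94 ± 0.20, adjusted p = 0.0007). No ranges overlapped, and the difference of -1.92 ± 0.29 (adjusted p = 2.1e-05) was the largest in the list.

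Herc6, the ligase that attaches Isg15 in mice, fell with ubiquitous progerin (log2 -0.90 ± 0.09, adjusted p = 4.5e-08) and was not called with VSMC progerin (log2 0.06 ± 0.08). It shares 1269 exon bases with Gm45193 on its own strand. Parp14 (ENSMUSG00000034422, GRCm38 chromosome 16, 35832874 to 35871544), which adds single ADP-ribose units, was at 149, 123, 117 and 128 CPM in wild-type and 68.3, 71.8 and 75.2 CPM in ubiquitous progerin pools, 1.80-fold lower (adjusted p = 4.2e-08). Its VSMC progerin values of 106, 104 and 115 CPM lay just under the 127, 115, 143 and 119 CPM of lamin C-only control (log2 -0.22 ± 0.08, adjusted p = 0.034), a call lost without lamin C-only pool 1 or 3 or VSMC progerin pool 1 or 2 (adjusted p = 0.065, 0.13, 0.14 and 0.12). DESeq2, upper-quartile scaling, limma on the deposited log2 values and a fit of only the groups compared also lost it (adjusted p = 0.068, 0.15, 0.05 and 0.06). Parp9 and Dtx3l, which act as a pair and share 458 exon bases on opposite strands, both fell with ubiquitous progerin, by 0.33 and 0.74 on the log2 scale (adjusted p = 0.0021 and 1.2e-07), and neither was called with VSMC progerin. Parp9 was called higher there with upper-quartile scaling or only the groups compared (log2 0.22 and 0.18, adjusted p = 0.04 and 0.045). Trim25, a ubiquitin ligase that acts on RIG-I, was called in neither comparison (log2 -0.11 ± 0.07 and -0.14 ± 0.07).

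Interferon-inducible GTPases attack the vacuoles of intracellular microbes and respond chiefly to interferon gamma. Of the 7 listed, 6 were called lower with ubiquitous progerin, beside 28.3% of all genes tested. For VSMC progerin, 1 of the 7 was called higher, near the 19.0% of all genes tested. Igtp (ENSMUSG00000078853, GRCm38 chromosome 11, 58199556 to 58207591) fell most of all 42 genes, from 49.2, 51.5, 53.9 and 42.4 CPM to 14.8, 19.8 and 21.7 CPM, 2.63-fold lower with no overlap (log2 -1.39 ± 0.14, adjusted p = 2.8e-07). It was at 55.4, 63.5 and 51.7 CPM in VSMC progerin and 49.1, 50.1, 63.2 and 46.6 CPM in lamin C-only pools, which overlap (log2 0.12 ± 0.13, adjusted p = 0.47), and shares 162 exon bases with Irgm2 on its strand. Gbp3 (ENSMUSG00000028268, GRCm38 chromosome 3, 142560026 to 142573209) was at 54.7, 54.9, 63.8 and 50.2 CPM in wild-type and 32.3, 38.2 and 35.5 CPM in ubiquitous progerin pools (log2 -0.66 ± 0.13, adjusted p = 0.00055). With VSMC progerin, at 71.3, 86.1 and 69.6 CPM, it overlapped the 51.7, 52.4, 76.2 and 57.1 CPM of lamin C-only control. Its call there (log2 0.35 ± 0.13, adjusted p = 0.036) was lost without lamin C-only pool 1, 2 or 4 or VSMC progerin pool 2 (adjusted p = 0.076 to 0.18), with no filter (0.062) and with only the groups compared (0.073).

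Gbp2 fell 2.37-fold with ubiquitous progerin (log2 -1.24 ± 0.14, adjusted p = 5.9e-06) and Ifi47 fell 1.91-fold (log2 -0.93 ± 0.12, adjusted p = 1.0e-06). Gbp7 and Irgm1 changed by -0.59 and -0.35, the latter not called without ubiquitous progerin pool 1 (adjusted p = 0.058). None of these 4 was called with VSMC progerin. Ifi47 was called higher there without lamin C-only pool 3 (log2 0.31, adjusted p = 0.032), with upper-quartile scaling (log2 0.29, adjusted p = 0.04) and in a fit of only the groups compared (log2 0.25, adjusted p = 0.048). Iigp1 was called in neither comparison (log2 -0.44 ± 0.23 and 0.22 ± 0.22), but lower with ubiquitous progerin with the pool block (log2 -0.50, adjusted p = 0.027).

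The remaining 6 genes held the largest rise with ubiquitous progerin. Epsti1 (ENSMUSG00000022014, GRCm38 chromosome 14, 77904239 to 78002657), an interferon-induced gene expressed in macrophages and stroma, was at 0.815, 1.35, 0.911 and 1.21 CPM in wild-type and 8.93, 7.34 and 5.9 CPM in ubiquitous progerin pools, 6.88-fold higher (log2 2.78 ± 0.30, adjusted p = 1.6e-07). With VSMC progerin it was at 8.12, 8.9 and 8.14 CPM against 0.838, 1.74, 0.542 and 1.26 CPM, 7.69-fold higher (log2 2.94 ± 0.30, adjusted p = 1.4e-07). All progerin pools lay above all controls, and the difference of both effects was not called (log2 -0.16 ± 0.42). Lgals3bp (ENSMUSG00000033880, GRCm38 chromosome 11, 118392751 to 118402092), a secreted glycoprotein that binds galectin, rose in VSMC progerin alone: 144, 142 and 136 CPM against 75, 79.1, 82.9 and 80.7 CPM in lamin C-only control (1.77-fold, log2 0.83 ± 0.06, adjusted p = 3.2e-09), the smallest p of the 42 genes in that comparison. Its ubiquitous progerin pools, at 96.5, 93.4 and 87.6 CPM, overlapped the 89.7, 86.9, 90 and 75.9 CPM of wild-type (log2 0.11 ± 0.07), and the difference of both effects was called (log2 -0.71 ± 0.09, adjusted p = 2.7e-06).

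Rtp4 (ENSMUSG00000033355, GRCm38 chromosome 16, 23520291 to 23614222), a receptor transport protein, varied little between pools, with an SD of 0.074 on the log2 scale against a median of 0.175 over the members. It was at 29.9, 27.1, 29.1 and 25.6 CPM in wild-type against 16.2, 17.2 and 18.5 CPM in ubiquitous progerin (log2 -0.69 ± 0.08, adjusted p = 6.3e-07), and 26.9, 27.7, 28.1 and 26.1 CPM in lamin C-only control against 35.5, 35.9 and 34.6 CPM in VSMC progerin (log2 0.38 ± 0.08, adjusted p = 0.00069). The pools of each pair did not overlap. Xaf1, a pro-apoptotic protein, was called in the same opposed way (log2 -0.38 ± 0.09 and 0.25 ± 0.09), but its VSMC progerin call (adjusted p = 0.029) was lost without lamin C-only pool 1 or 2 or VSMC progerin pool 1 or 3 (adjusted p = 0.06 to 0.10). Ifi35 fell with ubiquitous progerin only (log2 -0.62 ± 0.11, adjusted p = 6.6e-05). Ifi44 was called in neither comparison, and without wild-type pool 2 or ubiquitous progerin pool 2 it was called lower with ubiquitous progerin (log2 -0.55 and -0.85, adjusted p = 0.042 and 0.00016).

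The genes that rose with both forms of progerin were mostly those with little RNA in controls. The control libraries are also the base of both fold changes, so level and rise are not independent measures. Per kb of exon, the 6 lowest members in the 8 control libraries were Oas3, Oas2, Epsti1, Zbp1, Oasl1 and Rsad2, at 0.159 to 1.05 CPM per kb, and 5 of these 6 were called higher with both. The sixth gene higher with both, Irf7, stood at 8.83 CPM per kb. The 15 genes lower with ubiquitous progerin alone ran from 4.46 to 98.8 CPM per kb in controls. Summed macrophage markers were also higher in both progerin groups. Among the ubiquitous progerin libraries that sum was 1730, 1130 and 1250 CPM in pools 1, 2 and 3, and of the 6 genes higher with both, Irf7, Rsad2, Zbp1 and Oas3 were highest in pool 2 while Oas2 and Epsti1 were highest in pool 1. The part of macrophage RNA in these rises was not tested. Across the 42 genes, both log2 fold changes had a Pearson correlation of 0.83 and a Spearman correlation of 0.52, a description over genes that are not independent and that share libraries within each comparison.

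**Figure D4:**
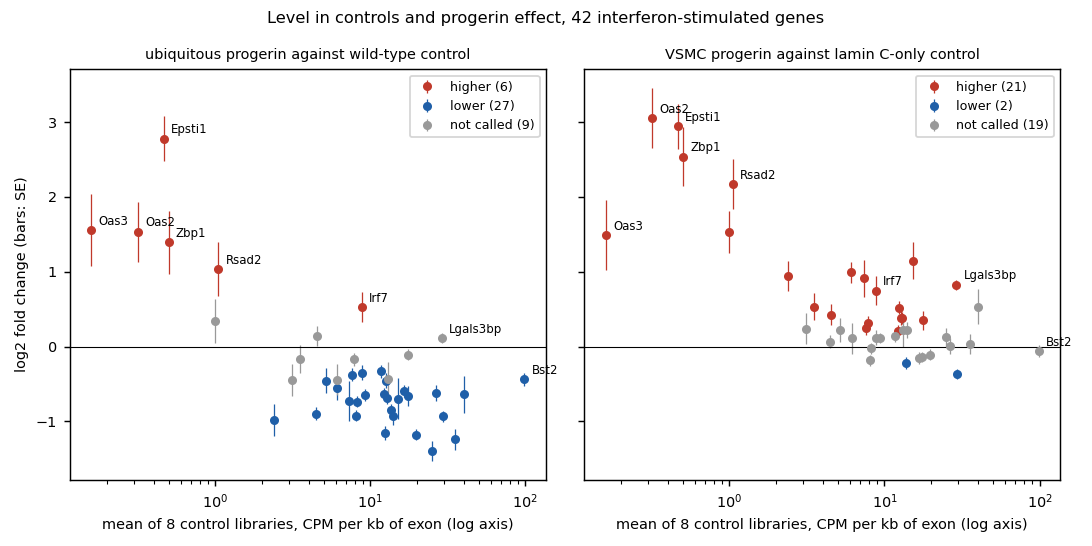
Mean level of 42 genes in the 8 control libraries (horizontal log axis, CPM per kb of exon) against the log2 fold change (vertical axis, bars of 1 standard error) with ubiquitous progerin (left) and VSMC progerin (right), coloured by call. The 6 genes with the lowest control levels, at 1.05 CPM per kb or less, include the 5 largest rises on the left and the 6 largest on the right, and the genes called lower on the left lie at 2.39 CPM per kb or more.

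Upstream of these genes, 5 interferon genes were read, each with 6 counts or fewer over all libraries; other interferon genes were not analysed here. Ifnb1, Ifna2 and Ifna4 had 0 counts in all 14 libraries, which allows up to 3 counts, or 0.0841 to 0.11 CPM, in each library. Ifna1 had 3 counts in 1 library and Ifng had 6 counts over 2 libraries. These limits cover counting error only. Of the 6 receptor genes tested, 3 were called higher and 0 lower with ubiquitous progerin, and 2 higher and 1 lower with VSMC progerin, beside 26.3% and 28.3%, and 19.0% and 23.0%, of all genes tested. Of the type I receptor chains, Ifnar1 was called higher with ubiquitous progerin (log2 0.31 ± 0.08) and not with VSMC progerin (-0.02 ± 0.08). Ifnar2 was called higher with both (0.23 ± 0.07 and 0.39 ± 0.07). Of the interferon gamma receptor chains, Ifngr1 was called higher with ubiquitous and lower with VSMC progerin (0.39 ± 0.06 and -0.20 ± 0.06). Ifngr2 was called higher with VSMC progerin alone (0.31 ± 0.11, adjusted p = 0.035).

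Of 10 genes of receptor signalling, 7 were called higher and 1 lower with ubiquitous progerin, and 3 higher and 1 lower with VSMC progerin, beside the same shares over all genes. Socs3, a feedback inhibitor of cytokine receptors, rose in both models, from 8.76 to 13.4 CPM in wild-type to 29.4 to 35.7 CPM in ubiquitous progerin (log2 1.50 ± 0.12, adjusted p = 2.9e-09) and from 9.85 to 11.1 CPM to 30.6 to 35.4 CPM with VSMC progerin (log2 1.66 ± 0.12, adjusted p = 1.3e-09).

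Of 15 genes that induce interferon, 5 were called higher and 5 lower with ubiquitous progerin, near the 26.3% and 28.3% of all genes tested. With VSMC progerin 7 were called higher and 1 lower, beside 19.0% and 23.0%. Tlr7, an endosomal receptor for single-stranded RNA found in macrophages and dendritic cells, rose most of the 15 with ubiquitous progerin, from 0.213 to 0.667 CPM in wild-type to 14.7 to 20.2 CPM in ubiquitous progerin (log2 5.52 ± 0.31, adjusted p = 2.6e-11) and from 0.475 to 0.901 CPM to 3.2 to 5.03 CPM with VSMC progerin (log2 2.52 ± 0.29, adjusted p = 6.7e-07). The ubiquitous minus the VSMC progerin effect was above 0 for Tlr7, at 3.00 ± 0.43 (adjusted p = 1.0e-05). Sting1, the adaptor below the DNA sensor Cgas and named after its values were seen, was called lower with ubiquitous progerin (log2 -0.47 ± 0.09, adjusted p = 0.00022) and higher with VSMC progerin (log2 1.06 ± 0.09, adjusted p = 7.3e-09), and its difference of effects was -1.53 ± 0.13. Cgas itself was called in neither (log2 0.04 ± 0.22 and 0.25 ± 0.22).

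**Figure D5:**
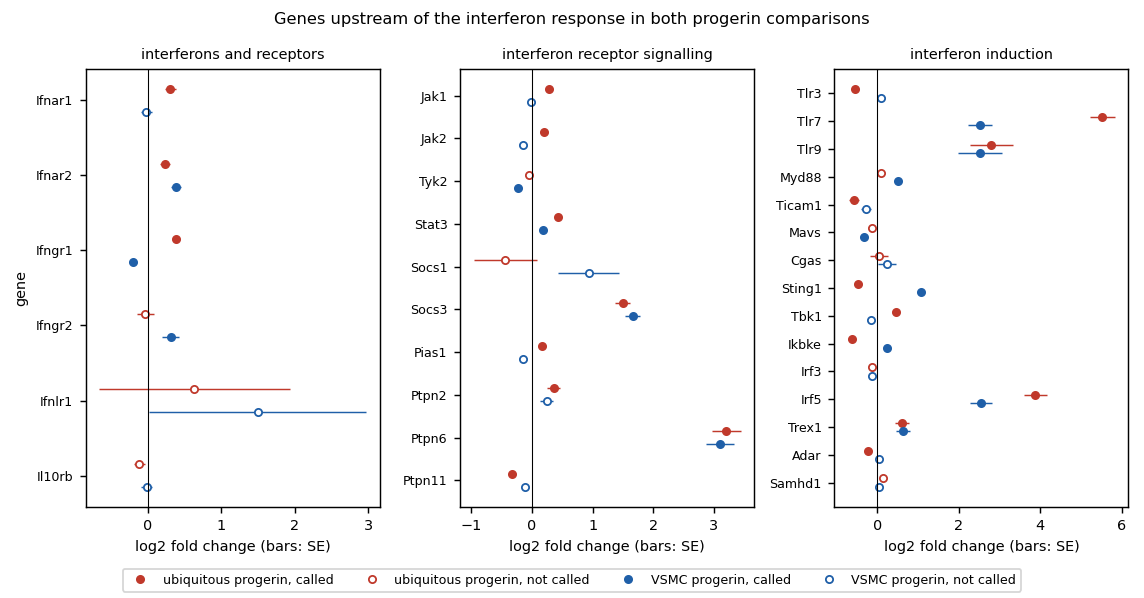
Log2 fold changes (horizontal axes, bars of 1 standard error) of genes of the interferon receptors, receptor signalling and interferon induction, with ubiquitous progerin in red and VSMC progerin in blue, filled where called at an adjusted p under 0.05. Socs3, Ptpn6, Tlr7, Tlr9 and Irf5 lie to the right in both comparisons, and Sting1 and Ikbke lie on opposite sides of 0.

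A second list of interferon-stimulated genes, outside the 42, was read for comparison. Of its 45 genes, 44 were tested: 27 were called lower and 4 higher with ubiquitous progerin (median log2 fold change -0.57), beside 28.3% and 26.3% of all genes tested. With VSMC progerin 11 were called higher and 10 lower (median -0.04), shares near the 19.0% and 23.0% over all genes tested. The difference of both effects was called downward for 27 of the 44 and upward for 1.

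Among them, Ifi27 was called in opposite directions (log2 -1.04 ± 0.07, adjusted p = 3.1e-10, and 0.24 ± 0.07, adjusted p = 0.0071). Ifitm3, which blocks virus entry at endosomes, was not called with ubiquitous progerin (log2 -0.06 ± 0.06) and rose from 265 to 283 CPM to 458 to 538 CPM with VSMC progerin (log2 0.89 ± 0.06, adjusted p = 6.9e-10). Sp100, a nuclear body protein, fell in both, from 231 to 293 CPM to 116 to 122 CPM with ubiquitous progerin (log2 -1.12 ± 0.08, adjusted p = 2.6e-10) and from 239 to 266 CPM to 146 to 174 CPM with VSMC progerin (log2 -0.66 ± 0.08, adjusted p = 6.3e-07). Its relative Sp110 was called lower with ubiquitous progerin only (log2 -0.93 ± 0.07, adjusted p = 9.5e-10).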

How the data were processed

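RNA was sequenced from 14 pools of aortic intima lysate. The submitters' processing notes name RSEM 1.2.28, STAR 2.7.10b, limma, cutadapt 4.1 and Trim Galore 0.6.10 as tools and GRCm38 as the build; their roles, the annotation release, the strand setting and any filter were not stated there. The authors deposited estimated counts per gene, and a table of log2 values used here only as an alternative.

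Estimated counts were rounded to whole numbers, scaled by TMM, filtered with filterByExpr (minimum count 10, minimum total 15, share 0.7) and fitted with edgeR 4.0.16 (R 4.3.3) in 1 quasi-likelihood fit of all 14 libraries, without covariates. Of 22430 genes, 14269 were tested, and a gene was called at a Benjamini-Hochberg adjusted p under 0.05 over all of them, with no minimum fold. Adjusted p-values in the text come from this test unless another tool is named. The standard error is the absolute log2 fold change over the square root of F. The procedure was tested on simulated data. Levels are TMM-scaled counts per 1e+06 counts (CPM), and per kb they are divided by the exon length of GENCODE M21 (GRCm38), which also gave positions. Depth ran from 27169800 to 35692400 counts per library.

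The labels give 12 to 14 mice per pool and do not say more of how pools relate, so p-values measure only the spread between these pools. Groups came from the sample labels. Alternatives were DESeq2 1.42.0, upper-quartile scaling, no filter, limma 3.58.1 on the deposited log2 values, fits of only the groups compared, pool number as a block, and leaving out each library. The 42 members and the other lists were chosen with earlier results of these data known. Values in every library are given for the member of each role with the smallest adjusted p in either progerin comparison, for up to 3 members with opposite calls, and for Stat2, Irf7 and Irf9; the values of Isg15 were added after they were seen. From the receptor signalling list, 1 gene is not reported here and is left out of its counts.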

Additional observations from a re-analysis of the deposited data

Results flagged for a closer look

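Among 84 groups of 4 control libraries (1 per gene and control group), 3 held a library far from the others, where chance gives about 1 in 20. Oasl1 was at 3.05 CPM in wild-type pool 1 against 2.08 to 2.19 CPM in the other wild-type pools. Cmpk2 was at 15.1 CPM in wild-type pool 1 against 19.6 to 20.6 CPM. Iigp1 was at 110 CPM in lamin C-only pool 3 against 64.7 to 70.8 CPM.

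The effect of ubiquitous progerin was lower than that of VSMC progerin, by a test of the difference itself (edgeR's quasi-likelihood test, adjusted p under 0.05), for 32 genes, given here as differences of log2 fold changes. Among the transcription factors and sensors the difference was -0.57 for Irf1, -0.85 for Irf9, -0.85 for Stat2, -0.74 for Ifih1 and -0.76 for Ddx58. Among the IFIT and OAS genes it was -1.64 for Ifit1, -1.17 for Ifit3, -1.55 for Oas1a, -1.52 for Oas2, -1.19 for Oasl1 and -1.68 for Oasl2. Among the other antiviral effectors it was -0.70 for Isg20, -0.68 for Cmpk2, -0.49 for Eif2ak2, -0.38 for Bst2 and -1.07 for Samd9l. Among the enzymes of protein modification it was -1.85 for Isg15, -1.92 for Usp18, -0.96 for Herc6, -0.71 for Dtx3l, -0.48 for Parp9 and -0.63 for Parp14. Among the GTPases it was -1.28 for Gbp2, -1.01 for Gbp3, -0.44 for Gbp7, -1.52 for Igtp, -0.47 for Irgm1 and -1.15 for Ifi47. Among the remaining genes it was -0.63 for Ifi35, -1.07 for Rtp4, -0.63 for Xaf1 and -0.71 for Lgals3bp. Of the 32, 28 kept the call under every alternative, and the 4 that lost it with some pool left out were Oas2, Oasl1, Isg20 and Cmpk2.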

How the results depend on the processing

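No member reversed a called direction in any alternative. Of the 33 calls with ubiquitous progerin 24 held in every alternative, and of the 23 with VSMC progerin 16 did. Of the 32 on the difference 28 did. For these counts, and for single calls reported lost, only libraries of the groups in that comparison were left out in turn. The fit is shared, so other libraries mattered too. Parp14 was not lower in both without ubiquitous progerin pool 1 or 3. Gbp3 had no opposite calls without wild-type pool 1, nor Isg15 without lamin C-only pool 1 or 2 or any VSMC progerin pool. Ifit1 had none without VSMC progerin pool 1. Irf7 was not higher in both without VSMC progerin pool 2. Ifih1 was lower in both without wild-type pool 1 or ubiquitous progerin pool 2. The count of members lower with VSMC progerin, and with it the count lower in both comparisons, was 1 in place of 2 with DESeq2, upper-quartile scaling, limma on the deposited log2 values and only the groups compared. Leaving out both ubiquitous progerin pool 2 and lamin C-only pool 3, chosen after seeing the data, gave 1 member lower with VSMC progerin and 1 lower in both, 3 higher in both and 3 higher with ubiquitous progerin; the medians were -0.65 with ubiquitous progerin, 0.39 with VSMC progerin and -0.93 for the difference. With 1 library left out at a time, 6 to 11 members had opposite calls, 1 to 3 were lower in both, 2 to 6 higher in both, 1 to 3 lower with VSMC progerin and 2 to 6 higher with ubiquitous progerin. The medians ran from -0.66 to -0.38 with ubiquitous progerin, 0.21 to 0.37 with VSMC progerin and -0.86 to -0.71 for the difference. The joint counts were also put through the settings after seeing the data.

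No shared deviation of same-numbered pools was detected: they correlated at -0.046 to 0.016 with ubiquitous progerin and -0.04 to 0.023 with VSMC progerin. Pools of unlike number correlated at -0.055 to 0.074 and -0.028 to 0.035. This cannot show whether pools were handled in pairs, which the labels do not say. With the pool number as a replicate block, 5 members were higher and 25 lower with ubiquitous progerin, 19 higher and 3 lower with VSMC progerin, and 33 lower for the difference; 8 had opposite calls, 3 were lower in both and 5 higher in both, with medians of -0.53, 0.25 and -0.73. Causes of these changes were not tested. At 27169800 counts or more per library, 3 counts correspond to at most 0.11 CPM, which limits what can be read of the interferon genes.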

Other observations

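The members varied between pools within groups, with a median SD of 0.175 on the log2 scale against 0.149 over all genes tested. Among genes with a mean of 10 to 130 CPM it was 0.143 for 34 members and 0.118 for 7839 genes. Ubiquitous progerin pool 2 stood at a member median of -0.28 (log2 over the mean of the 8 control libraries) against -0.66 and -0.58 in pools 1 and 3, and it was the highest of the 3 for 25 of the 42 genes. Its summed macrophage markers were the lowest of the 3, at 1130 CPM. Lamin C-only pool 3 stood at 0.17, while the other lamin C-only pools lay between -0.09 and 0.004, and it was the highest of the 4 for 32 of the 42 genes. Such counts over all genes tested are not given here, and whether these shifts are particular to the members was not tested. The 3 VSMC progerin pools lay between 0.29 and 0.31.

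Members that lie next to each other on a chromosome did not always move together. Rsad2 and Cmpk2, transcribed away from each other 12751 bases apart on chromosome 12, changed by 1.03 and -0.46 on the log2 scale with ubiquitous progerin and by 2.17 and 0.22 with VSMC progerin. Their ubiquitous progerin calls were each lost with some pools left out. Oasl2 and Oasl1, 11005 bases apart on chromosome 5, changed by -1.16 and 0.34 with ubiquitous progerin and by 0.52 and 1.53 with VSMC progerin. The change of Oasl1 with ubiquitous progerin was not called. Oas2 and Oas3, 3244 bases apart, changed by 1.54 and 1.56 with ubiquitous progerin and by 3.05 and 1.49 with VSMC progerin. Log2 changes with ubiquitous progerin were both negative for Dtx3l and Parp9, Ifit2 and Ifit3, Gbp7 and Gbp3, and Gbp3 and Gbp2.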
